A study of Drosophila melanogaster with 26 samples.

Results

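Antibodies against the remodeler subunits ACF1 and RSF-1 were used for ChIP-seq in Drosophila embryos, and 13 antibody libraries gave 7606 merged regions on chromosome arms 2L, 2R, 3L and 3R. Described here are the 2443 of these regions (32.1%) that were called as a peak in exactly 1 of the 13 libraries, from now on the single-library regions. Peaks were merged where neighbours shared at least 50 bp. The other 5163 regions were called in at least 2 libraries and are termed recurrent regions. Members were thus chosen by the presence and absence of a called peak in the antibody libraries, and the number of members in each library is a description that no test accompanies.

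The mutant chromatin came from acf1 embryos (allele acf1-7; Rb1 replicate 1 and Rb2 replicates 1 and 2 with ACF1 antibodies) and from rsf-1 embryos (allele rsf1-3602; 1 library with the RSF-1 antibody). WT chromatin was used for 1 Rb1, 3 Rb2, 2 RSF-1 and 3 3F1 libraries. Both alleles arose from imprecise excision of a P-element, the labels give Oregon-R as the strain of every sample, and all embryos were 0 to 12 h old and fixed with 3.7% formaldehyde. Rb1, Rb2 and the RSF-1 serum are rabbit polyclonal antibodies, whereas 3F1 is a rat monoclonal antibody that was added in excess and recovered on protein G beads. As controls there were 10 inputs, 1 for each batch of chromatin, and 3 WT libraries with pre-immune serum, the serum of a rabbit before immunization. The labels name all 3 as ACF1 pre-immune sera, so the RSF-1 and 3F1 antibodies had no pre-immune control of their own.

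ACF1 and RSF-1 are the signature subunits of ISWI-type remodelers, enzymes that slide nucleosomes and keep their arrays regularly spaced. A ChIP-seq peak marks DNA that is enriched after immunoprecipitation, either because the antigen was cross-linked there or because the site is retrieved without it. Such retrieval without antigen is known from accessible, highly transcribed promoters, and a mutant without the antigen is the control that reveals it. The peak lists hold positions without read numbers, and a missing peak means here that none was called.

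The 13 antibody lists held 1001 to 5636 peaks in all and 564 to 4302 peaks on the arms of chromosomes 2 and 3. Sequencing depth per library is unknown from these files. No mutant library shares a batch of chromatin with a WT library, so that genotype and batch cannot be told apart, and the same holds for 3F1, which was used on batches 1 to 3 only. The libraries of batches 4 and 8 stood apart. Rb2 WT replicate 3 (batch 8) had 118 regions in common with Rb1 acf1 replicate 1 and with no other library, and 80 with Rb2 acf1 replicate 1 alone, which are both from batch 4. With Rb2 WT replicate 2 alone it had 23, and with Rb2 WT replicate 1 alone 3. The main results, apart from those by chromosome arm, are given with and without them.

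Single-library regions were spread unevenly over the libraries. In mutant chromatin, Rb1 acf1 replicate 1 held 446, Rb2 acf1 replicate 1 held 222, Rb2 acf1 replicate 2 held 293 and the RSF-1 library of rsf-1 embryos held 189. In WT chromatin the lowest number was 10 (Rb1 replicate 1), the median 110 and the highest 473 (Rb2 replicate 3). The mutant and WT ranges overlapped, since Rb2 WT replicate 3 and 3F1 WT replicate 2 (320 regions) held more than most mutant libraries. Replicates of 1 antibody in WT chromatin were not alike. Rb2 had 28, 110 and 473 single-library regions in replicates 1 to 3, 3F1 had 133, 320 and 22, and RSF-1 had 170 and 27. Low numbers also went with the batch of chromatin. Rb1 WT replicate 1 (10), Rb2 WT replicate 1 (28) and RSF-1 WT replicate 2 (27) were all from batch 6. The low 3F1 replicate 3 (22) was from batch 3. Replicates of 1 antibody came from different batches, and the part of the batch was not tested.

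The number did not simply follow the length of the list. As a share of the peaks on the arms, single-library regions made up 37.1% in Rb1 acf1 replicate 1, whose list was the second shortest of the 13, and 3.95% in RSF-1 WT replicate 1, whose list was the longest. The other mutant libraries had 15.2% (Rb2 acf1 replicate 1), 7.33% (Rb2 acf1 replicate 2) and 4.62% (RSF-1 in rsf-1). In WT chromatin the share was 1.07 to 18.1% (median 3.67%). The 5 libraries with the most single-library regions held 71.8% of them, and the 3 libraries of batches 4 and 8 held 1141 (46.7%). When these 3 libraries were left out and the same rule was applied to the other 10, 1469 single-library regions were found. They include regions that had been shared only with a library left out.

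**Figure D1:**
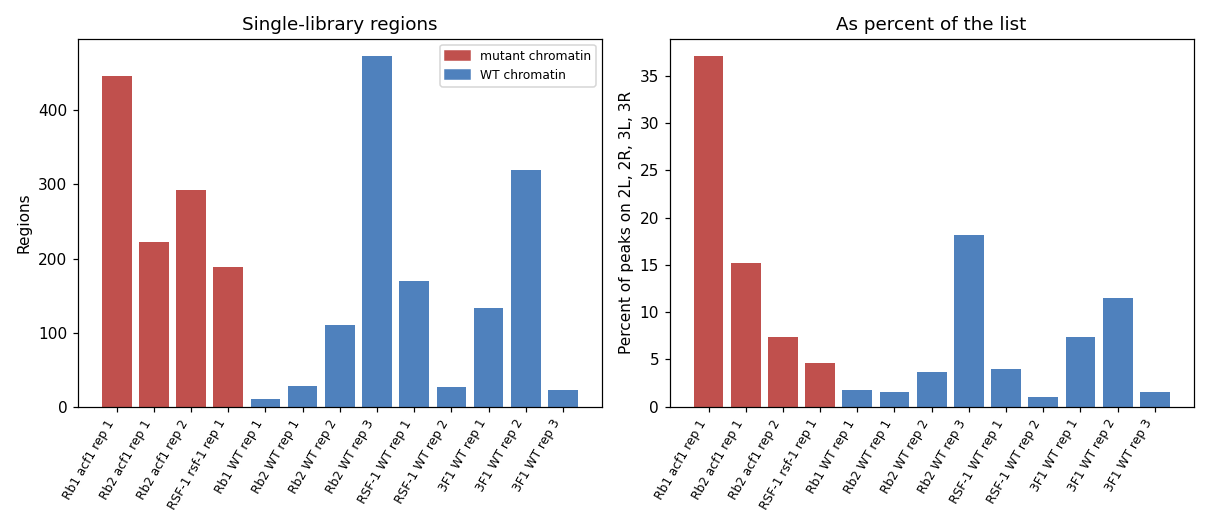
Single-library regions in each of the 13 antibody libraries, as a number (left) and as a percentage of the peaks on 2L, 2R, 3L and 3R (right), with mutant chromatin in red and WT chromatin in blue. The bars range from 10 regions (Rb1 WT replicate 1) to 473 (Rb2 WT replicate 3), and Rb1 acf1 replicate 1 has the highest percentage, 37.1%.

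Just outside the threshold were 978 regions called in exactly 2 libraries. Of these, 258 (26.4%) were called in RSF-1 WT replicate 1 and in the rsf-1 library and in no other, so that leaving out 1 of these libraries turns them into single-library regions. A further 261 were shared by 2 libraries of batches 4 and 8 only. Every single-library region consisted of 1 peak of 200 bp. In the regions of 2 libraries the peaks shared 173 bp in the median, and only 15 of 978 pairs shared 50 to 60 bp. On the other side of that limit, 82 single-library regions touched a recurrent region or overlapped it by less than 50 bp.

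The deposited lists are not in order of position. They run through short stretches of ascending positions that become longer towards the end of the list, and the sources do not state the order. Place in the list was therefore expressed as a percentage of the list length, where a low value is early. The median place of single-library regions was later than that of the recurrent regions in 13 of 13 libraries, by 38.6 ± 9.23 percentage points (SD, n = 10 batches), or 39.5 without batches 4 and 8. Because place and call come from the same peak calling, this is a description without a test. The difference was smallest for 3F1 WT replicate 1, where the median place was 63.3% for single-library and 39.96% for recurrent regions. It was largest for Rb2 WT replicate 1, with 96.6% for single-library and 42.3% for recurrent regions.

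Lists were cut into steps of 10% of their length. Of the peaks in the first 10% of the lists, 6 of 3485 (0.172%) were in single-library regions, and 9 of 13 libraries had none there. In the last 10% it was 609 of 1880 peaks (32.4%), with 15.2% (RSF-1 WT replicate 2) to 65.5% (3F1 WT replicate 2) in single libraries. Rb1 acf1 replicate 1 departed from this pattern. Already between 30 and 40% of its list, 43.1% of the arm peaks were called in no other library, compared with 0 to 7.82% in the other 12 lists. Further down, between 70 and 80% of the list, Rb2 acf1 replicate 1 of the same batch reached 40.97% and Rb2 WT replicate 3 of batch 8 reached 56.4%, so that the 3 libraries that stood apart were also those with many single-library peaks well before the end of their lists.

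**Figure D2:**
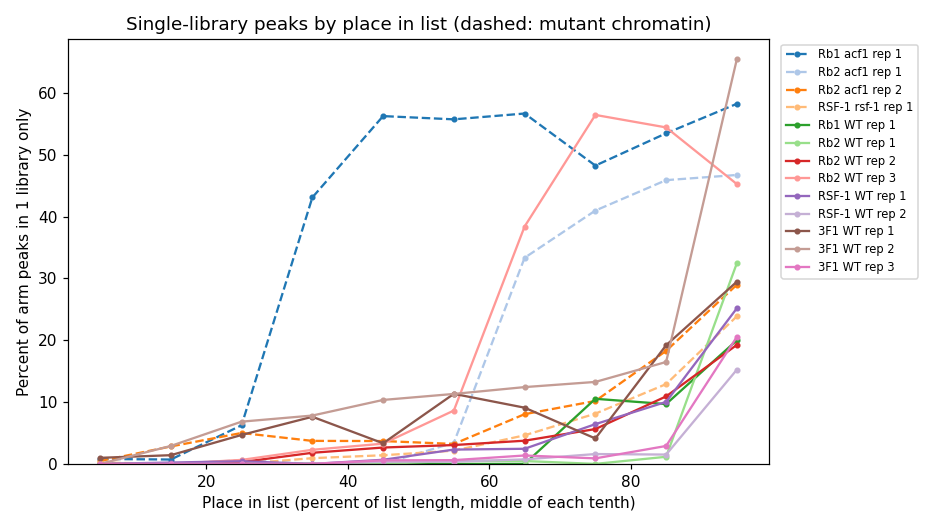
Percentage of arm peaks that were called in 1 library only, for each 10% of the list, by library (dashed lines: mutant chromatin). Most lines stay near 0 in the early part and end between 15.2 and 65.5%, while Rb1 acf1 replicate 1 is at 43.1% between 30 and 40%.

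The single-library region that stands first in its list, among those on 2L, 3L and 3R, was looked up in each library. In the mutant libraries these were 3R 12047109 to 12047309 (Rb1 acf1 replicate 1, place 268 of 1984), 2L 12546391 to 12546591 (Rb2 acf1 replicate 1, place 1299 of 2226), 3L 3515358 to 3515558 (Rb2 acf1 replicate 2, place 327 of 5184) and 3R 16927405 to 16927605 (RSF-1 in rsf-1, place 458 of 5346). The first of them lies 14081 bp from the nearest recurrent region and the other 3 only 36, 101 and 150 bp. In WT chromatin the earliest was 3R 17122899 to 17123099 in 3F1 replicate 1, at place 72 of 2574 and 40 bp from a recurrent region. In 3F1 replicate 2 it was 2L 2364848 to 2365048 (place 448 of 3928), 112 bp from one, and in RSF-1 replicate 1 it was 2L 4458295 to 4458495 (place 1023 of 5636), 229 bp from one. For Rb2 the regions were 3R 20770859 to 20771059 (replicate 1, place 1324 of 2556) and 3L 1517527 to 1517727 (replicate 3, place 1100 of 3755), both of which touched or overlapped a recurrent region, and 3R 6180050 to 6180250 (replicate 2, place 1184 of 4009), 2804 bp away. In Rb1 it was 2L 22281388 to 22281588 at place 746 of 1001, 172 bp away. The remaining ones, 3L 628391 to 628591 in 3F1 replicate 3 (place 933 of 2130) and 3L 19784849 to 19785049 in RSF-1 replicate 2 (place 1894 of 3545), were 1251 and 1558 bp away. None of the 13 had a peak in an input or a pre-immune library. Of these best-placed regions, 9 thus lay within 1 kb of a recurrent region. Positions are those of Release 5 as deposited, and genes at these positions were not looked up as the only gene table available was for Release 6.

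Over all single-library regions, 658 (26.9%) lay within 1 kb of a recurrent region, and the median distance was 5152 bp. For comparison, 21.1% of the recurrent regions had another recurrent region within 1 kb, at a median distance of 4339 bp. Within libraries, the share within 1 kb was higher for the single-library than for the recurrent regions in 11 of 13. The exceptions were Rb1 acf1 replicate 1 (19.7 and 23.1%) and Rb2 WT replicate 3 (20.1 and 20.3%), the libraries with the most members. The spread was wider among single-library regions, with 8.19% at 1 to 200 bp and 31.6% at more than 10 kb, against 5.23% and 21.7% of the recurrent regions. In mutant libraries, 19.7% (Rb1 acf1), 24.8% (Rb2 acf1 replicate 1), 19.8% (Rb2 acf1 replicate 2) and 22.2% (RSF-1 in rsf-1) were within 1 kb. The 3F1 libraries of WT chromatin had 55.6% (74 of 133 regions), 39.7% (127 of 320) and 11 of 22 regions within 1 kb. Rb1 WT with 5 of 10 regions and Rb2 WT replicate 1 with 46.4% (13 of 28) reached similar shares from few regions. Rb2 WT replicates 2 and 3 had 30.0 and 20.1%, and the RSF-1 libraries of WT chromatin 27.1 and 40.7%. Without batches 4 and 8, 32.3% of the remaining 1302 members were within 1 kb.

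**Figure D3:**
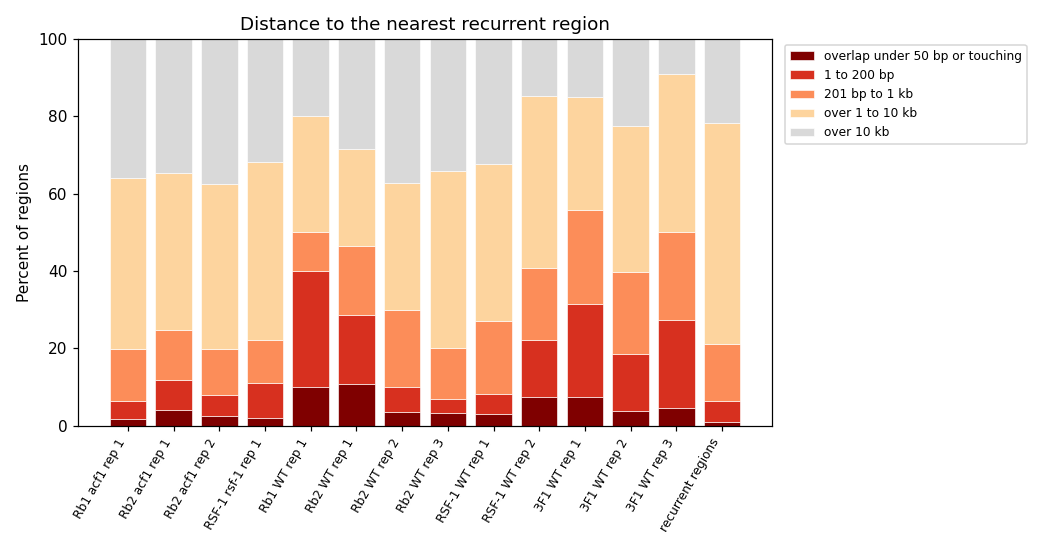
Distance from each single-library region to the nearest recurrent region in 5 classes, as a percentage of the regions of each library, with the distance between neighbouring recurrent regions in the last column. The 3F1 libraries reach 39.7 to 55.6% within 1 kb, the other WT libraries 20.1 to 50%, and the mutant libraries 19.7 to 24.8%.

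For the 658 members near a recurrent region it was asked whether the same library had also called that neighbour. In 429 cases (65.2%) it had not, so that the library had its peak beside the recurrent region and none on it. This share was 75.9% for 3F1 (161 of 212), 59.4% for Rb1 and Rb2 together (206 of 347) and 62.6% for RSF-1 (62 of 99). The antibodies are not ranked by it, since libraries left very different numbers of all 5163 recurrent regions uncalled. These were 3481, 2688 and 3748 for 3F1 replicates 1 to 3 and 1456 to 4609 for Rb1 and Rb2. For RSF-1 it was 26 of 46 neighbours beside 1031 of 5163 (WT replicate 1). In WT replicate 2 it was 9 of 11 beside 2655, and in rsf-1 27 of 42 beside 1265. Of the 161 neighbours that a 3F1 library had skipped, 118 (73.3%) were recurrent through rabbit antibodies alone, with no 3F1 library among their callers. Because these neighbours were by definition not called in the library itself, the base is the recurrent regions that the same library did not call. Of those, weighted by the neighbours of each 3F1 library, 77.7% had no 3F1 call, so that the share near single-library regions was no higher. The corresponding numbers were 24 of 206 neighbours (11.7%) without an Rb1 or Rb2 call, beside a base of 22.2%, and 23 of 62 (37.1%) without an RSF-1 call, beside a base of 64.5%. These shares were not tested.

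By chromosome arm, single-library regions made up 37.1% of all merged regions on 2L (687), 33.8% on 3L (687), 30.1% on 2R (531) and 27.5% on 3R (538). Positions next to the centromere, where the assembled arms pass into pericentric heterochromatin, compact chromatin that is rich in repeats, were then counted apart. The 2 Mb of each arm next to the centromere were taken as the end of 2L and 3L, counted back from the outermost peak of any list, and as the first 2 Mb of 2R and 3R. This window was chosen after the positions had been seen and no test was run. It held 526 single-library regions (21.5%) and 511 recurrent regions (9.90%). On 2L 23.1% of the single-library and 10.7% of the recurrent regions were there, on 2R 31.1% and 11.4%, on 3L 21.1% and 8.40%, and on 3R 10.6% and 9.37%. The excess was thus marked on 3 arms and slight on 3R. Outside the window, single-library regions still made up 33.7% of all merged regions on 2L, 30.5% on 3L, 25.1% on 2R and 27.2% on 3R, so that the arms remained uneven without it.

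The share next to the centromere was higher among the single-library than among the recurrent regions in 11 of 13 libraries, and it differed greatly between libraries. It was 35.0% of the single-library and 21.7% of the recurrent regions in Rb1 acf1 replicate 1, and 30.2% and 13.5% in Rb2 acf1 replicate 1. Rb2 acf1 replicate 2 had 3.41% and 6.07%, and the rsf-1 library 5.29% and 6.34%, which are the 2 libraries with the opposite order. In WT chromatin, Rb2 replicate 3 of batch 8 had 29.4% of the single-library and 10.8% of the recurrent regions there, and Rb2 replicate 1 had 78.6% (22 of 28 regions) and 6.04%. In 3F1 the single-library values were 16.5%, 16.6% and 11 of 22 regions in replicates 1 to 3, beside 7.31, 6.99 and 9.26% of the recurrent regions. Libraries with few members, namely Rb1 WT (10), Rb2 WT replicate 1 (28), RSF-1 WT replicate 2 (27) and 3F1 WT replicate 3 (22), gave values of 22.2 to 78.6%, whereas the rest of the WT libraries outside batch 8 gave 8.18 to 16.6%. Without batches 4 and 8, 12.6% of the remaining members were next to the centromere.

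**Figure D4:**
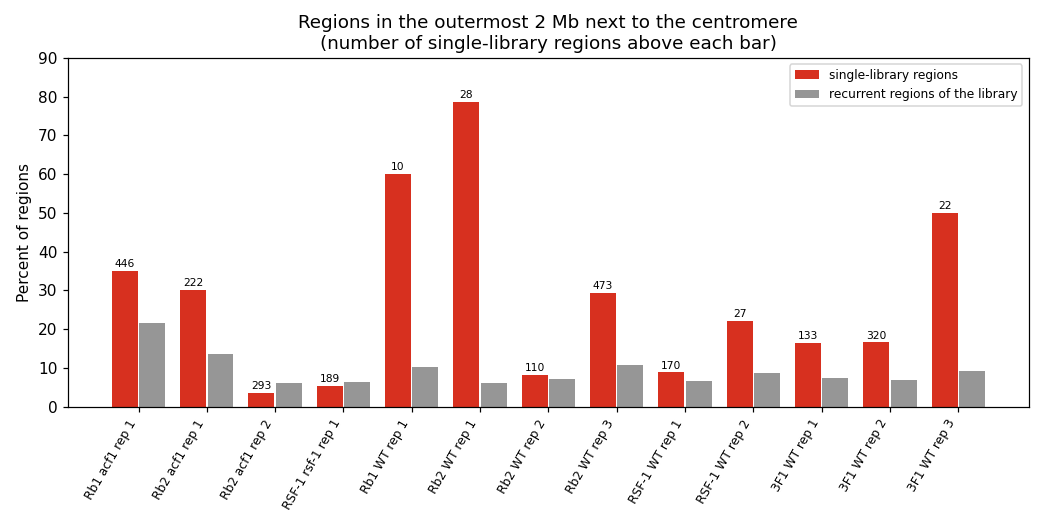
Percentage of regions in the 2 Mb of the arms next to the centromere, for the single-library regions (red, their number above the bar) and the recurrent regions (grey) of each library. The red bar is the higher one in 11 of 13 libraries, and the libraries of batch 4 and batch 8 (Rb1 acf1 replicate 1, Rb2 acf1 replicate 1 and Rb2 WT replicate 3) have 29.4 to 35.0% of many regions there.

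Counted in bins of 1 Mb, each of the 98 bins held at least 10 single-library regions, with a median of 21. The densest bins on 2L, 3L and 3R were 3L from 23 to 24 Mb with 101 single-library and 62 recurrent regions, 2L from 22 to 23 Mb with 100 and 67, and 2L from 21 to 22 Mb with 59 and 58. In each of them the libraries of batches 4 and 8 contributed most, with 26, 23 and 13 regions in the first bin from Rb1 acf1 replicate 1, Rb2 WT replicate 3 and Rb2 acf1 replicate 1. The members of the other batches numbered 39, 27 and 17 in these 3 bins. On 3R the densest bin was the first Mb, with 39 single-library and 67 recurrent regions.

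Peaks of the input libraries do not enter the rule that chose the members and were compared with a test. The study pairs each ChIP profile with an input control, and whether these inputs also served as background in peak calling is not stated. If they did, they took part in deciding which peaks exist, and the input comparisons, above all those with the own input, are not independent of the members. An input is chromatin sequenced without immunoprecipitation, where a peak marks DNA that is over-represented before any antibody is added. Of all 7606 merged regions, 2.13% had a peak in at least 1 of the 10 inputs. This was the case for 45 of 2443 single-library regions (1.84%, exact 95% confidence interval 1.35 to 2.46%) and for 117 of 5163 recurrent regions (2.27%, 1.88 to 2.71%). The intervals treat regions as independent and cover counting error only. Recurrent regions were wider (median 253 bp) than single-library regions (200 bp), so a control peak can share 50 bp with them more easily. This holds for all input and pre-immune comparisons of the 2 sets, and widths were not adjusted for. Batches 4 and 8 held 5 of these 45 regions. Without them the share was 40 of 1302 single-library regions (3.07%, 2.20 to 4.16%), above instead of below the 2.27% of the recurrent regions. That value still includes recurrent regions of batches 4 and 8, and it lies within the interval. Averaged over the batches of chromatin, 3.97% of the single-library and 2.11% of the recurrent regions of a library had an input peak. The difference of 1.86 ± 4.99 percentage points (SD, n = 10 batches) did not exceed the spread between batches (exact permutation test by sign flips, two-sided, p = 0.389, adjusted over 5 comparisons 0.667, smallest possible p 0.00195), and 5 of 10 batches were higher for the single-library regions. With the antibody libraries of batches 4 and 8 left out and the rule applied anew, the difference was 2.46 ± 4.33 percentage points (SD, n = 8 batches, exact permutation test, p = 0.141).

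The batch mean lies above the pooled share because of libraries with few members. Rb2 WT replicate 1 had an input peak in 9 of 28 single-library regions (32.1%, exact interval 15.9 to 52.4%) and 3F1 WT replicate 3 in 3 of 22 (13.6%, 2.91 to 34.9%). Libraries with many members differed. The rsf-1 library had an input peak in 7 of 189 (3.70%) and 3F1 WT replicate 2 in 13 of 320 (4.06%), both above the share of all merged regions. In batches 4 and 8 it was 3 of 446 in Rb1 acf1 replicate 1, 0 of 222 in Rb2 acf1 replicate 1 (exact interval 0 to 1.65%) and 2 of 473 in Rb2 WT replicate 3. When only libraries with at least 50 single-library regions were used, the difference was -0.41 percentage points (exact sign-flip permutation test, p = 0.453).

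Single inputs called few of the members. WT inputs 1 to 3, which belong to the 3F1 libraries, had 88, 1068 and 370 peaks on these arms and called 10, 22 and 13 single-library regions. The other 7 inputs had 10 to 31 peaks there and called 2 to 6. With so few peaks, the share called in such an input is held near 0 for any large set of regions. The comparisons with the own input could therefore hardly show a difference on these arms. In the input of the very chromatin that a library was made from, 0.491% of all regions had a peak, counted once for each library that called them. By batch this was 0.601% of the single-library and 0.601% of the recurrent regions, a difference of 0.000176 ± 0.596 percentage points (SD, n = 10 batches, exact sign-flip permutation test, p = 1). The share of single-library regions with a peak in their own input, 0.601%, was also set against the mean of the 9 other inputs, 0.622%. For every batch but batch 2 these include WT input 2 with its 1068 peaks, so own and other inputs were unlike in length. The difference was -0.02 ± 1.17 percentage points (SD, n = 10 batches, exact sign-flip permutation test, p = 0.949, adjusted p = 1). Without the antibody libraries of batches 4 and 8, these differences were 0.201 percentage points from the recurrent regions (exact permutation test, p = 0.477) and 0.131 from the other inputs (exact permutation test, p = 0.766). Of the members with an input peak, 33 had it in 1 input and 12 in 2 to 5.

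Among the named regions, 2L 22281001 to 22281201 was a peak in the most inputs. Called with 3F1 replicate 2 at place 3149 of 3928, it had a peak in 5 inputs (WT inputs 1 to 5), its own among them, and lies 559 bp from a recurrent region. Next was 3L 20816584 to 20816784, called in the rsf-1 library at place 4288 of 5346, with peaks in 4 inputs including that of rsf-1 embryos. The regions 2L 22493159 to 22493359 (Rb2 WT replicate 1), 3L 15290878 to 15291078 (RSF-1 in rsf-1) and 3R 25750530 to 25750730 (3F1 WT replicate 2) had peaks in 3 inputs each. All 5 stood at 80.2% of the list or later. A peak in the own input and no other was found, for example, at 3R 18192861 to 18193061 (3F1 WT replicate 2, place 1905 of 3928), which is the best placed of this kind on 2L, 3L and 3R. The next 4 were 3L 24439942 to 24440142 and 3L 24086120 to 24086320 (3F1 WT replicate 2), 2L 22813076 to 22813276 (Rb2 WT replicate 1) and 3R 17134092 to 17134292 (RSF-1 WT replicate 1), at 93.4 to 99.1% of their lists.

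Pre-immune serum is the other control that the choice of members did not use. Of all merged regions, 2.47% had a peak in at least 1 of the 3 pre-immune libraries. Among single-library regions it was 95 of 2443 (3.89%, exact interval 3.16 to 4.73%) and among recurrent regions 93 of 5163 (1.80%, 1.46 to 2.20%). Averaged over batches, 7.29% of the single-library and 1.79% of the recurrent regions of a library had a pre-immune peak. The difference was 5.50 ± 11.7 percentage points (SD, n = 10 batches, exact permutation test by sign flips, two-sided, p = 0.0488), with higher values for single-library regions in 7 of 10 batches, and it did not pass when adjusted over the 5 comparisons (p = 0.244, exact permutation test).

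This difference depended on single libraries. Without 3F1 WT replicate 3, where 9 of 22 members (40.9%, exact interval 20.7 to 63.6%) had a pre-immune peak, it was 1.99 percentage points (exact permutation test, p = 0.0781). Without 3F1 replicate 1 it was 3.82 (exact permutation test, p = 0.0508), without 3F1 replicate 2 it was 5.06 (exact permutation test, p = 0.105), and without Rb2 acf1 replicate 2, Rb2 WT replicate 3 or RSF-1 WT replicate 2 the value was 5.84, 6.34 or 5.60 (exact permutation test, p = 0.0586, 0.0586 and 0.0527). Without the antibody libraries of batches 4 and 8 it was 7.61 (exact permutation test, p = 0.0391), and without pre-immune Rb2 replicate 1 it was 2.09 (exact permutation test, p = 0.0449).

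The pre-immune libraries themselves were unequal. Pre-immune Rb2 replicate 1, with 316 peaks on these arms, called 81 single-library (3.32%) and 74 recurrent regions (1.43%). The pre-immune library labelled Rb, with 177 peaks, called 30 (1.23%) and 33 (0.639%), and pre-immune Rb2 replicate 2 had no peak on these arms. These are sera of ACF1 rabbits, and neither RSF-1 nor 3F1 could be set against a pre-immune serum of its own. The RSF-1 libraries had a peak of these ACF1 sera in 1 of 386 single-library regions (0.259%). For 3F1 it was 29 of 475 (6.11%), for batches 4 and 8 it was 56 of 1141 (4.91%), and for the other ACF1 libraries with rabbit antibodies it was 9 of 441 (2.04%). The recurrent regions of these libraries differed as well. In Rb1 acf1 replicate 1, 6.28% of the single-library and 6.34% of the recurrent regions had such a peak. In Rb2 WT replicate 3 it was 2.75% and 2.43%, and in Rb2 acf1 replicate 1 it was 6.76% and 3.08%. For 3F1 it was 10 of 133 and 42 of 1682 regions in replicate 1. In replicate 2 it was 10 of 320 and 25 of 2475, and in replicate 3 it was 9 of 22 and 43 of 1415. Next to the centromere, 40 of 526 single-library regions (7.60%) and 44 of 511 recurrent regions (8.61%) had a pre-immune peak. On the rest of the arms these were 55 of 1917 (2.87%) and 49 of 4652 (1.05%). An input peak was found in 27 of the 526 single-library regions next to the centromere (5.13%) and in 18 of the other 1917 (0.939%). In all, 2308 single-library regions (94.5%) had a peak neither in an input nor in a pre-immune library.

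**Figure D5:**
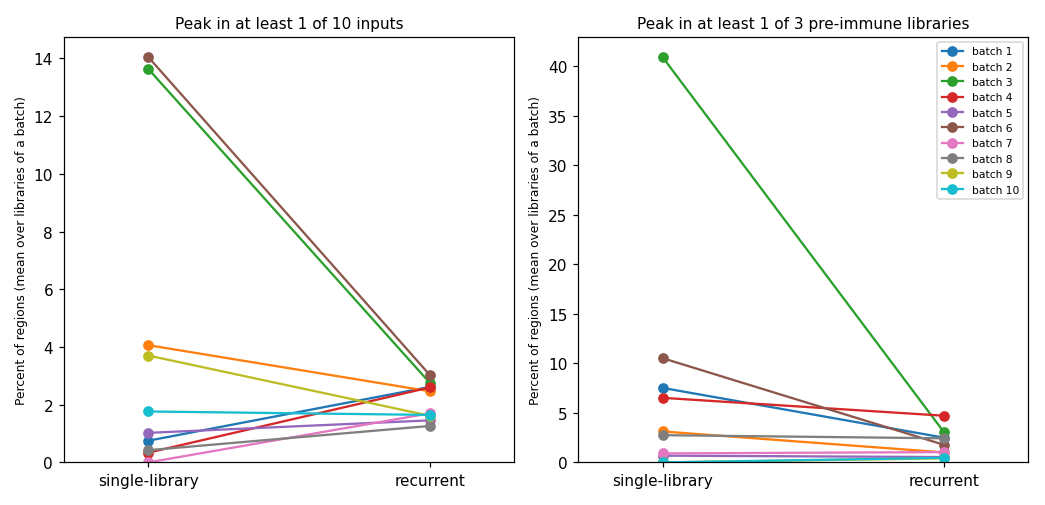
Percentage of single-library (left) and recurrent (right) regions with a peak in at least 1 of 10 inputs (first panel) or 1 of 3 pre-immune libraries (second panel), with 1 line for each batch of chromatin. Batches 3 and 6 are high for single-library regions in both panels, and the mean difference is 1.86 percentage points for inputs and 5.50 for pre-immune libraries.

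Between genotypes, an input peak was found in 1.69% of the single-library regions in mutant batches (3 batches) and in 4.96% in WT batches (7 batches). The difference of -3.27 percentage points did not exceed the spread between batches (two-sided exact permutation test, p = 0.4, adjusted 0.667, smallest possible p 0.00833). Without the antibody libraries of batches 4 and 8 it was -2.48 percentage points (exact permutation test, p = 0.643). With libraries of at least 50 single-library regions it was 0.29 percentage points (exact permutation test, p = 0.804). Taken as regions, 13 of 1150 members from mutant chromatin (1.13%, exact interval 0.603 to 1.93%) and 32 of 1293 members from WT chromatin (2.47%, 1.70 to 3.48%) had an input peak. A pre-immune peak was found in 3.91% of the members from mutant and 3.87% of those from WT chromatin.

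Some single-library regions lay far from any recurrent region. The farthest on 2L, 3L and 3R was 3R 6873918 to 6874118, called with 3F1 WT replicate 2 and 154.5 kb from the nearest recurrent region. In the same gap of the recurrent map were 3R 6863761 to 6863961 in the rsf-1 library (144.3 kb) and 3R 6899115 to 6899315 in Rb1 acf1 replicate 1 (136.5 kb). The other 2 of the farthest 5 were 2L 17101302 to 17101502 in Rb2 acf1 replicate 1 (137.9 kb) and 3R 23251894 to 23252094 in the rsf-1 library (121.1 kb). They stood at 59.6 to 98.4% of their lists and had no peak in any input or pre-immune library.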

How the data were processed

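Chromatin of WT, acf1 and rsf-1 embryos was analysed in 26 libraries (13 antibody, 3 pre-immune, 10 input). The authors mapped the reads to Release 5 (dm3) with Bowtie 1.1.1, keeping unique hits, and used HOMER with its defaults for peak calling. The deposited values are start and end positions of peaks, 1 list for each library, without scores, and although the study lists an input control for each profile, whether HOMER used it is not given in the sources used here. Sequencing depth per library is unknown.

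Peaks on 2L, 2R, 3L and 3R were merged where they shared at least 50 bp with the running region. Members and comparisons were chosen with earlier results of these data known. Control overlap used the same 50 bp. Libraries of a batch were averaged, and batches were compared with exact permutation tests (threshold 0.05), adjusted over 5 comparisons by Benjamini-Hochberg. Libraries of 1 batch thus count once, and regions are paired by batch of chromatin as the labels give it. The p-values measure the spread between these batches only. Regions were named on 2L, 3L and 3R only: the first in each list, the 5 with most inputs, the 5 farthest from a recurrent region, the 5 best placed with a peak in their own input alone, and the 3 densest bins. Alternatives were an overlap of 1 or 150 bp, all sequences, the first 1000 entries of each antibody list, a recurrence of at least 7 libraries, other units, and each library left out in turn. Calculations were made in Python (version 3.11.15) with the packages scipy (1.17.1), numpy (2.4.6) and, for plots, matplotlib (3.10.9), and they were tested on simulated data. Sequences and genes were not analysed here.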

Additional observations from a re-analysis of the deposited data

Results flagged for a closer look

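The pre-immune overlap of batch 3 stood apart from the other 9 batches. In this batch, which holds 3F1 WT replicate 3 alone, the share of single-library regions with a pre-immune peak was 37.9 percentage points above that of the recurrent regions, compared with -0.46 to 8.75 in the others. The value rests on 9 of 22 single-library regions, a share with an exact interval of 20.7 to 63.6%. Of 6 sets of values examined in this way, 1 held such a value, and a chance rate of about 1 in 20 was assumed. This rate takes no account of the unequal numbers of regions in the batches. Whether 1 of 6 exceeds chance can therefore not be decided, and no conclusion is drawn from it.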

How the results depend on the processing

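The number of single-library regions (2443) was 3791 with an overlap of 150 bp, 3772 on all sequences, 895 from the first 1000 entries of each antibody list and 1469 without batches 4 and 8, and leaving out 1 library at a time gave 2216 to 2657. The share within 1 kb of a recurrent region was 10.8% with the first 1000 entries and 7.98% when recurrent meant at least 7 libraries (25.0 to 27.4% with 1 library left out). The difference in place was 50.3 percentage points with the stricter recurrence (37.1 to 40.1 with 1 library left out).

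The differences in percentage points that follow come from exact permutation tests. The input difference was -2.71 on all sequences and -0.41 in libraries with at least 50 members, and 0.984 to 2.48 with 1 library left out. The own-input difference, near 0, was -0.114 with 1 bp, -0.000367 with 150 bp and -3.25 on all sequences (exact permutation test, p = 0.0156), and -0.0801 to 0.398 with 1 library left out. Own minus other inputs was 0.0255 with 1 bp, 0.788 on all sequences, 0.19 without the inputs of batches 2 and 3, 0.131 without batches 4 and 8 and 0.419 with at least 50 members, and -0.336 to 0.348 with 1 library left out. Mutant minus WT batches was 0.288 with at least 50 members (-4.21 to -1.96 with 1 library left out). The pre-immune difference no longer passed with 1 bp (5.88), on all sequences (1.22), with the first 1000 entries (0.337), with at least 50 members (1.05) and without the pre-immune library labelled Rb (5.32), and with 1 library left out it was 1.99 to 6.60 (exact permutation test, p = 0.0137 to 0.105).

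Without the replicate block, in which single-library and recurrent regions of a batch are paired, the pre-immune difference of 5.50 had p = 0.0962 (permutation test), and the side of the threshold of the other 3 paired comparisons did not change. The settings without batches 4 and 8, with at least 50 members and without a pre-immune library were chosen after seeing the data. The causes of these changes were not tested. With unknown read depth and no scores, a region close to the calling threshold cannot be told from one far below it, and small numbers of members limit the shares in 4 libraries with 10 to 28 regions.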

Other observations

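Single-library regions also lay close to each other. Of the pairs of neighbouring single-library regions, 331 were separated by at most 1 kb, and 280 of these joined regions of different libraries. In all, 607 members (24.8%) belonged to such a pair. In 32 pairs, all of different libraries, the peaks touched or overlapped by less than 50 bp. The most frequent pairs were again those of batches 4 and 8, with 59 between Rb1 acf1 replicate 1 and Rb2 WT replicate 3, 40 between Rb1 acf1 replicate 1 and Rb2 acf1 replicate 1, and 37 between Rb2 acf1 replicate 1 and Rb2 WT replicate 3. The next most frequent pair, Rb2 acf1 replicate 1 with 3F1 WT replicate 2, had 10.

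Regions called in exactly 2 libraries are set beside the single-library regions without a test. In the 2 Mb next to the centromere lay 21.5% of the single-library regions and 17.6% of the 978 regions of 2 libraries. Within 1 kb of a recurrent region (another one, for the regions of 2 libraries) were 26.9% of the single-library regions and 28.9% of those of 2 libraries. An input peak was found in 1.84% of the single-library regions and 3.17% of those of 2 libraries, and a pre-immune peak in 3.89% and 3.27%. Of the 155 regions called in all 13 libraries, 5.16% lay next to the centromere and 9.68% had a recurrent region within 1 kb, 1 had an input peak and none a pre-immune peak.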
